A study of Mus musculus with 12 samples.

Results

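Collagens and other genes of the stromal matrix were followed in tongue epithelium from Langerin-DTR mice. In these mice the receptor for diphtheria toxin is made under the control of langerin (Cd207), so that the toxin removes langerin-expressing cells, which in this epithelium are Langerhans cells. The mice were given diphtheria toxin (DT, 6 samples) or phosphate-buffered saline (PBS, 6 samples) 2 times per week, starting at 2 weeks of age and ending in adulthood. Both groups carried the receptor, and the labels give no other allele or agent. The labels' protocols describe peeling the epithelium with dispase, a further collagenase and DNase step, and stranded mRNA libraries. The genes were all symbols of the form of a collagen chain (Col, a number, a and a number) other than Col17a1 and Col7a1, plus Prelp, Lum, Dcn, Bgn, Fmod, Ogn, Fn1, Sparc, Postn, Fbn1, Eln, Fbln1, Fbln2, Pdgfra, Tnc, Tnxb and Vcan. This gave 59 genes, 42 collagens and 17 others, among 49164 genes with counts.

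Collagens are trimers of chains wound into a triple helix. Fibrillar collagens form the cables of connective tissue, type IV forms the sheet of the basement membrane, type VI forms beaded filaments near cell surfaces, and FACIT collagens (fibril-associated, with interrupted triple helices) decorate fibrils. Small leucine-rich proteoglycans such as decorin bind collagen fibrils and growth factors, and elastin, fibrillin, fibulins, versican and tenascins add elasticity, water and adhesion. Most of these proteins are made by fibroblasts of the lamina propria under the epithelium, whereas keratinocytes contribute to the basement membrane.

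Total counts were 26181070 to 34333949 in DT libraries and 21226436 to 30282813 in PBS libraries. Counts given below for a group are raw and are not scaled for this difference in depth. Cd207 had 0 to 2 counts per DT library and 53 to 92 per PBS library, so all 12 libraries went with their labels. A count of 3 in a library, taken as the floor of detection, was 0.0813 to 0.116 CPM (counts scaled to library size after TMM) in DT and 0.102 to 0.143 CPM in PBS. These floors cover counting error only. The first principal component of all tested genes (26.6% of variance) set DT 1, DT 2, DT 3, PBS 5 and PBS 6 apart from the other 7 samples. Keratinocyte markers were abundant in every library. The 7 markers of differentiated tongue keratinocytes summed to 126595 to 164306 CPM in DT and 154768 to 194524 CPM in PBS, and the 8 basal markers to 9391 to 11356 CPM in DT and 9984 to 11681 CPM in PBS. All 7 differentiation markers had negative log2 fold changes (median -0.27), and Rptn (-0.48, edgeR adjusted p = 0.0164), Sprr1b (-0.46, adjusted p = 0.0249) and Krt78 (-0.37, adjusted p = 0.0441) fell in DT. Of the 8 basal markers 4 were positive and 4 negative, and 0 passed by edgeR. The part of these keratinocyte changes in the matrix values was not tested. Of 13 fibroblast markers 5 were abundant enough to test, and all 13 summed to 48.5 to 58.6 CPM in DT and 46.4 to 59.1 CPM in PBS. Most of that sum was Ly6a, Vim and Thy1, which other cells also express. The 8 untested markers were scarce and went both ways. Over 6 libraries each, Dpt had 37 counts in DT and 47 in PBS, Prrx1 had 25 in DT and 18 in PBS, Mfap5 had 6 in DT and 15 in PBS, and Pdgfrb had 4 in DT and 13 in PBS. Twist1 had 2 in DT and 7 in PBS, Meox2 had 3 in DT and 3 in PBS, Twist2 had 2 in DT and 2 in PBS, and Tcf21 had 2 in DT and 0 in PBS.

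Together the 59 genes took 0.0484 to 0.0650% of the counts of a library. Decorin (Dcn), a proteoglycan that coats collagen fibrils, made up much of this, with 51.1 to 54.4% of the genes' summed counts in DT and 45.7 to 56.7% in PBS. Levels of different genes were compared per kilobase of exon, with lengths from a GRCm38 annotation in which all 59 genes matched by gene ID. These lengths span all annotated transcripts and are upper limits, so the per-kilobase levels are approximate. Dcn stood at 49.6 ± 4.78 CPM per kb in DT and 50.6 ± 5.06 CPM per kb in PBS (SD, n = 6 each). Next came Col18a1, a basement membrane collagen that releases endostatin, at 7.80 ± 1.25 CPM per kb in DT and 9.41 ± 1.07 CPM per kb in PBS. Averaged over all 12 samples, the level of Dcn per kb was 5.82 times that of Col18a1. Col1a1, the main chain of fibrillar collagen I, stood at only 0.0737 ± 0.0233 CPM per kb in DT and 0.141 ± 0.0651 CPM per kb in PBS, and the level of Dcn per kb was 466 times that of Col1a1 over all samples. Lum, the gene next to Dcn in the annotation and itself a fibril-binding proteoglycan, had 18 counts in DT and 23 in PBS over 6 libraries each, against 55177 counts of Dcn in DT and 45572 in PBS. In all, 11 of the 59 genes were above 1 CPM per kb: Dcn, Col18a1, Sparc, Fbln1, Col4a5, Col8a1, Tnc, Col16a1, Eln, Col4a6 and Col6a1.

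**Figure D1:**
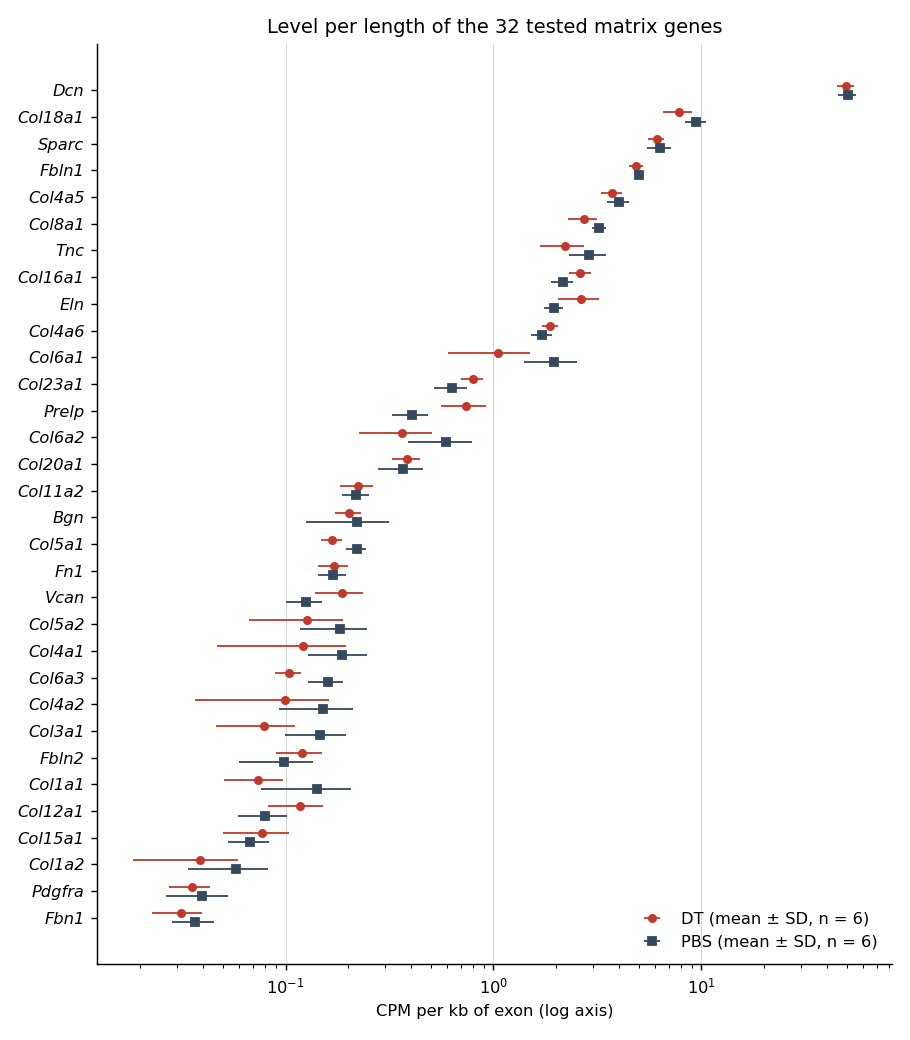
Level per kilobase of exon (CPM per kb, log axis) of the 32 tested genes, as mean ± SD over 6 DT samples (red circles) and 6 PBS samples (dark squares). Dcn, at 49.6 CPM per kb in DT and 50.6 CPM per kb in PBS, stands above all others, and Col1a1, Col1a2 and Pdgfra are near the bottom.

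The comparison of DT with PBS addresses how the epithelium differs when Langerhans cells are removed from early life. Of the 59 genes, 32 passed the filter on low counts and were tested among 14231 genes with edgeR's quasi-likelihood test. Prelp was called higher (1 gene), whereas 0.443% of all genes tested were called higher. None was called lower by edgeR at an adjusted p of 0.05, with 9 of the 32 lower at an unadjusted p under 0.05, while 0.857% of all genes tested were called lower. DESeq2, which gave a p-value to 58 of the 59 genes among 30096, called 2 lower, while it called 1.29% of the 30096 lower. Its own filter can leave genes of low counts without an adjusted p, so the share of genes open to a call may be larger. With an unadjusted p under 0.05 there were 15 of the 32 (46.9%, 6 higher and 9 lower), against 15.4% of all genes tested. Log2 fold changes were positive for 12 and negative for 20, with a median of -0.10, against 0.0055 over all genes tested. With libraries scaled by size alone, 16 were positive and 16 negative with a median of -0.0011, while the median of all genes tested was 0.11. These counts describe the genes and are no support for a shift, because genes measured in the same samples are not replicates. A gene of low level also enters the test when any 6 samples reach the minimum, which 1 group can do alone. Among the tested collagens 13 were negative and 7 positive, and among the other genes 7 were negative and 5 positive. In a bulk sample fewer cells of a type and less RNA per cell cannot be told apart.

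**Figure D2:**
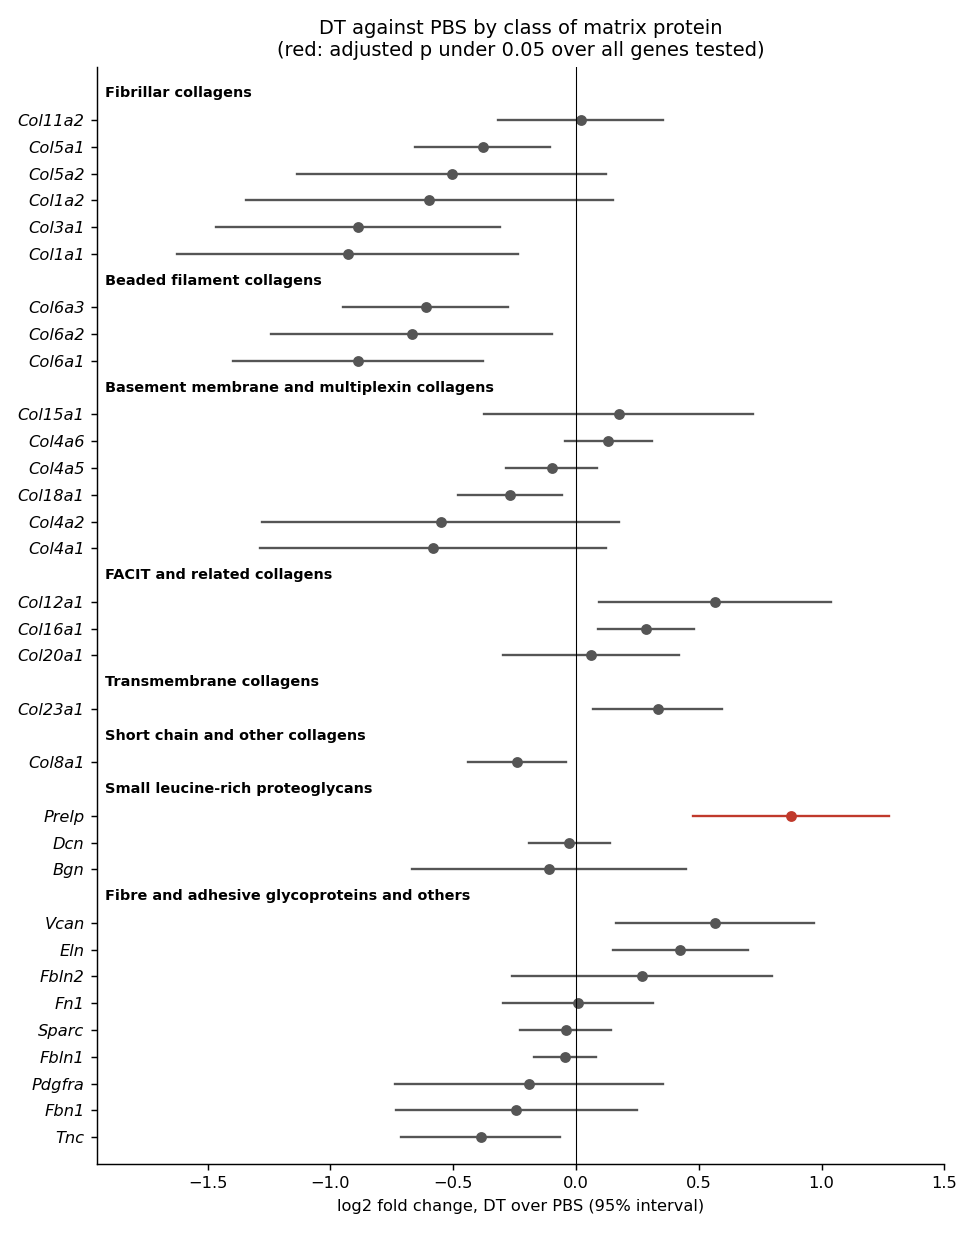
Log2 fold change of DT over PBS with its 95% interval (edgeR) for the 32 tested genes, grouped by class of matrix protein. Prelp, at 0.88, is the one gene past the threshold, the 3 collagen VI chains lie at -0.89 to -0.61, and Dcn lies near 0 with a narrow interval.

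Prelp (ENSMUSG00000041577), which encodes a leucine-rich proteoglycan that links basement membranes to the collagen beneath, was the one gene of the 32 tested that rose by edgeR. Its lowest, median and highest levels were 1.46, 2.86 and 3.36 CPM in DT, against 0.994, 1.51 and 1.89 CPM in PBS. The 5 highest DT samples lay above every PBS sample, and DT 1, at 1.46 CPM, lay within the PBS range. The mean was 2.68 ± 0.659 CPM in DT and 1.47 ± 0.287 CPM in PBS (SD, n = 6 each), which is 0.88 ± 0.19 on the log2 scale (SE), with an interval from 0.48 to 1.28 at 95% and an adjusted p of 0.0341 by edgeR. The call held without DT 1 (log2 fold change 1.00, edgeR adjusted p = 0.00753) and was lost when any other of the 12 samples was left out (adjusted p up to 0.0850). It was also lost in limma-voom (0.86, adjusted p = 0.0521). Within DT 1, DT 2, DT 3, PBS 5 and PBS 6 (a split chosen after the data were seen) the log2 fold change was 1.04, and within the other 7 samples it was 0.85. The split was taken from the first principal component of the same values, so no p is given for it. An antisense gene in the annotation, Gm15851, overlaps 9.68% of the exon bases of Prelp and had 1 count over all 12 libraries.

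Among the 59 genes the nearest to Prelp on the chromosome, transcribed away from it, is Fmod, which encodes fibromodulin, a collagen-binding proteoglycan of the same family. Fmod had 15 counts in DT and 5 in PBS over 6 libraries each and was not tested. The RefSeq windows around their starts (GRCm38.p6, 250 bases before to 50 after) are shown because this pair holds the called gene. Capitals mark matches on either strand to the TATA box (TATAAA), the CCAAT box (CCAAT), the GC box (GGGCGG), the AP-1 motif (TGANTCA) and the run CCTCCC. No matches to different motifs overlapped in the windows shown. The window of Prelp is chr1:133921352-133921651 on the minus strand, and that of Fmod is chr1:134037004-134037303 on the plus strand.
Prelp: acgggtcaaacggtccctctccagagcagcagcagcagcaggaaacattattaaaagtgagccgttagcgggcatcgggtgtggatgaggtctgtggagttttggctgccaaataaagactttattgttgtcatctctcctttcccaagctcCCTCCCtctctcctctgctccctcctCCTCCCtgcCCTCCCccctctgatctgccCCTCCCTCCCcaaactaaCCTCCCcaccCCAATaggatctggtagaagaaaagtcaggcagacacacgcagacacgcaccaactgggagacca
Fmod: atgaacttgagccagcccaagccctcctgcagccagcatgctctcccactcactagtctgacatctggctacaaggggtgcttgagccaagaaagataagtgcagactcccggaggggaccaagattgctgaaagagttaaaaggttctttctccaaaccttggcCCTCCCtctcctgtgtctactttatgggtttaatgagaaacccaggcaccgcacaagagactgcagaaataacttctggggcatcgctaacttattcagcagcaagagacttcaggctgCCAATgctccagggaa
The Prelp window held 6 matches to CCTCCC and 1 to CCAAT, and the Fmod window 1 of each. CCTCCC was added to the search after these windows were seen. Of all 32851 windows of this length listed by RefSeq, 42.4% held CCTCCC and 37.4% held CCAAT, while of the 52 windows found for 46 of the 59 genes 76.9% held CCTCCC and 28.8% held CCAAT.

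The other small leucine-rich proteoglycans did not pass. Dcn averaged 290 ± 27.9 CPM in DT and 295 ± 29.5 CPM in PBS (SD, n = 6 each). Its groups overlapped over nearly their whole range, 262 to 329 CPM in DT and 249.9 to 334 CPM in PBS. The log2 fold change was -0.03, with a 95% interval of -0.19 to 0.14 (edgeR adjusted p = 0.912), and with libraries scaled by size alone it was 0.09. Bgn, biglycan, a close relative of decorin, averaged 1.23 ± 0.180 CPM in DT and 1.34 ± 0.582 CPM in PBS (log2 fold change -0.11, edgeR adjusted p = 0.889). The PBS values of Bgn were spread, with PBS 5 at 0.497 and PBS 6 at 0.746 CPM and the other 4 at 1.45 to 1.83 CPM. Ogn, which encodes osteoglycin, had 8 counts in DT and 8 in PBS.

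**Figure D3:**
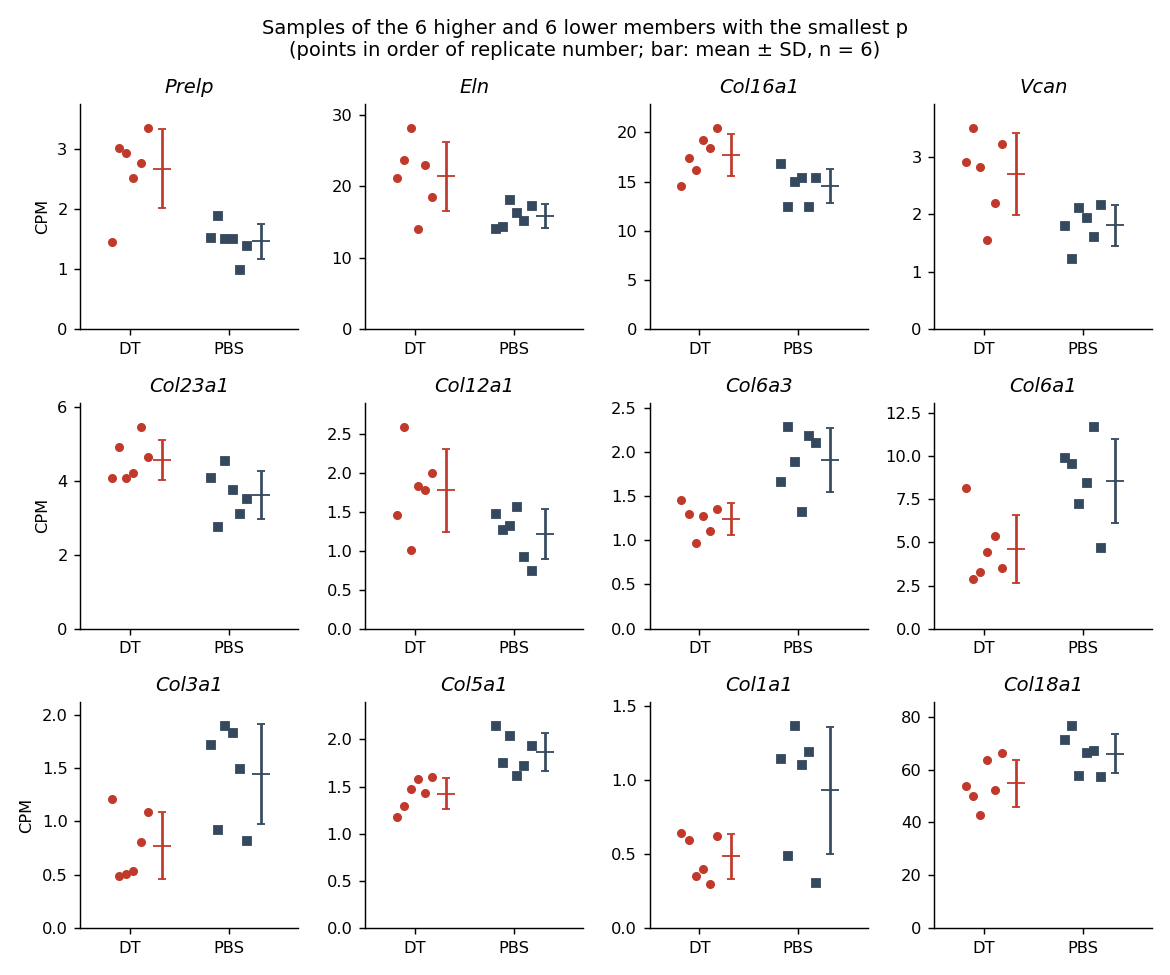
CPM in each sample for the 6 genes with positive and the 6 with negative fold changes that had the smallest p, with DT (red circles) left of PBS (dark squares) and mean ± SD beside the points (n = 6 each). Prelp has 5 DT samples above every PBS sample, Col5a1 has all DT samples below all PBS samples, and Col6a1 overlaps through DT 1 at 8.18 CPM and PBS 6 at 4.68 CPM.

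Collagen VI, whose alpha1, alpha2 and alpha3 chains assemble into one molecule, had the lowest class median, -0.67 over its 3 tested chains, but no chain passed the adjusted threshold. Col6a1 ran from 2.88 through a median of 3.99 to 8.18 CPM in DT and from 4.68 through 9.0 to 11.7 CPM in PBS. Its 4 lowest DT samples lay below every PBS sample, while DT 1 and DT 5, at 8.18 and 5.40 CPM, lay within the PBS range. On the log2 scale Col6a1 differed by -0.89 ± 0.24 (SE), with an interval from -1.40 to -0.38 at 95% and an adjusted p of 0.0802 by edgeR. Col6a3, the chain with the long globular ends, had lowest, median and highest levels of 0.968, 1.28 and 1.46 CPM in DT, against 1.32, 2.00 and 2.28 CPM in PBS (-0.61 ± 0.16 SE, edgeR adjusted p = 0.0677). Its 4 lowest DT samples were likewise below all PBS samples. Col6a2 averaged 3.04 ± 1.17 CPM in DT and 4.91 ± 1.68 CPM in PBS (-0.67, edgeR adjusted p = 0.236). DESeq2 called Col6a3 (-0.62, adjusted p = 0.0209), and a covariate for the side of the first principal component gave calls for Col6a1 (-0.89, edgeR adjusted p = 0.0267) and Col6a3 (-0.62, adjusted p = 0.0237). That covariate was taken from the same values, and its fit called 4.72% of all 14231 genes tested lower. Within DT 1, DT 2, DT 3, PBS 5 and PBS 6 Col6a1 stood at -0.76 and within the other 7 samples at -0.97. This split was taken from the first principal component of the same values, so no p is given for it. The fit of the 7 samples called 1120 genes in all, against 185 in the reported fit. Per kilobase the level of Col6a1 was 3.16 times that of Col6a2 and 11.5 times that of Col6a3, averaged over all samples. The ratio of Col6a1 to Col6a2 counts was 1.09 to 2.15 in DT and 1.46 to 2.00 in PBS. Col6a4, Col6a5, Col6a6 and Col28a1 had 2 to 9 counts each over all 12 libraries.

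The RefSeq windows of the 3 tested chains of collagen VI are shown because these chains had negative fold changes together. The marks are as for Prelp, and all lie on the minus strand of GRCm38.p6. They are chr10:76725995-76726294 for Col6a1, chr10:76623355-76623654 for Col6a2 (1 of 2 windows listed) and chr1:90843922-90844221 for Col6a3.
Col6a1: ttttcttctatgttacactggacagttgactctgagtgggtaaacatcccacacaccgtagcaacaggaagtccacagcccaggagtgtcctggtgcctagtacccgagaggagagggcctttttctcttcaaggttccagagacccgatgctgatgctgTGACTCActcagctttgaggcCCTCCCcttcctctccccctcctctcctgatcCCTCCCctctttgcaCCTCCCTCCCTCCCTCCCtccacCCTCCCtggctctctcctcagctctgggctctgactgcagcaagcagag
Col6a2: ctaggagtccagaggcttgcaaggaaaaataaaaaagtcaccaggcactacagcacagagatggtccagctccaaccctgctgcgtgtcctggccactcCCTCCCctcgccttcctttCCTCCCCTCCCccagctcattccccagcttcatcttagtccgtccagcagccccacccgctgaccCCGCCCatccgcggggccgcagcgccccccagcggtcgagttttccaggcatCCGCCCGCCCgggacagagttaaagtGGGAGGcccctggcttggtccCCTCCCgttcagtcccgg
Col6a3: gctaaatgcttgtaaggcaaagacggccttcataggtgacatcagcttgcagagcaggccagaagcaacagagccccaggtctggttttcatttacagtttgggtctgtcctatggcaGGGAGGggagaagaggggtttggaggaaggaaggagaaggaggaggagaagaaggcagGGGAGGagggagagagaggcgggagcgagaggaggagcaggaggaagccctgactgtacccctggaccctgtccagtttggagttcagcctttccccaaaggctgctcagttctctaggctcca
CCTCCC or its reverse complement occurred 7 times for Col6a1, 5 times for Col6a2 and 2 times for Col6a3. The GC box occurred 3 times for Col6a2, and 35.7% of all windows held it. AP-1 occurred 1 time for Col6a1, and 7.81% of all windows held it. The window of Col6a1 thus differed from that of Col6a2 in holding no GC box and 1 AP-1 match.

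Tongue muscle lies beneath the lamina propria that underlies this epithelium, and collagen VI is abundant around muscle fibres. The 10 skeletal muscle markers summed to 6.12 to 38.0 CPM in DT and 4.40 to 82.6 CPM in PBS, with none of them at 0 over all libraries. All 9 tested muscle markers had negative fold changes (median -1.09) and 0 passed by edgeR, with Myh1 (-1.52, adjusted p = 0.300) and Actn2 (-1.14, adjusted p = 0.318) having the smallest p. The muscle and collagen VI sums were both high in some samples and apart in others. PBS 1 had the highest muscle sum, 82.6 CPM, and the highest beaded filament sum after PBS 5, 18.4 CPM. PBS 3 and DT 6, the next highest in muscle markers at 58.2 and 38.0 CPM, had beaded filament sums of 12.9 and 8.15 CPM. PBS 2 and PBS 4 had 22.9 and 23.3 CPM of muscle markers with beaded filament sums of 16.7 and 15.1 CPM. PBS 5 had the highest beaded filament sum, 20.4 CPM, and the lowest muscle sum, 4.40 CPM. DT 1 had the highest of DT, 13.4 CPM, with 6.12 CPM of muscle markers. A further fit left out the 3 libraries highest in muscle markers (PBS 1, PBS 3 and DT 6). These were chosen after the data were seen, so no p is given. In that fit Col6a1 stood at -0.82, Col6a3 at -0.68 and Prelp at 0.82, against -0.89, -0.61 and 0.88 in the reported fit. It called 5 genes in all, none of the 59, against 185 in the reported fit. The 8 endothelial markers summed to 5.47 to 7.86 CPM in DT and 5.15 to 11.5 CPM in PBS. Most of this was Pecam1 (-0.67, edgeR adjusted p = 0.203), and Vwf, the other tested marker, stood at 0.29 (adjusted p = 0.424). Tek had 46 counts in DT and 23 in PBS, Plvap had 18 in DT and 24 in PBS, Cdh5 had 13 in DT and 8 in PBS, and Cldn5 had 0 in DT and 3 in PBS. The part of muscle or vessel RNA in the collagen values was not tested.

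**Figure D4:**
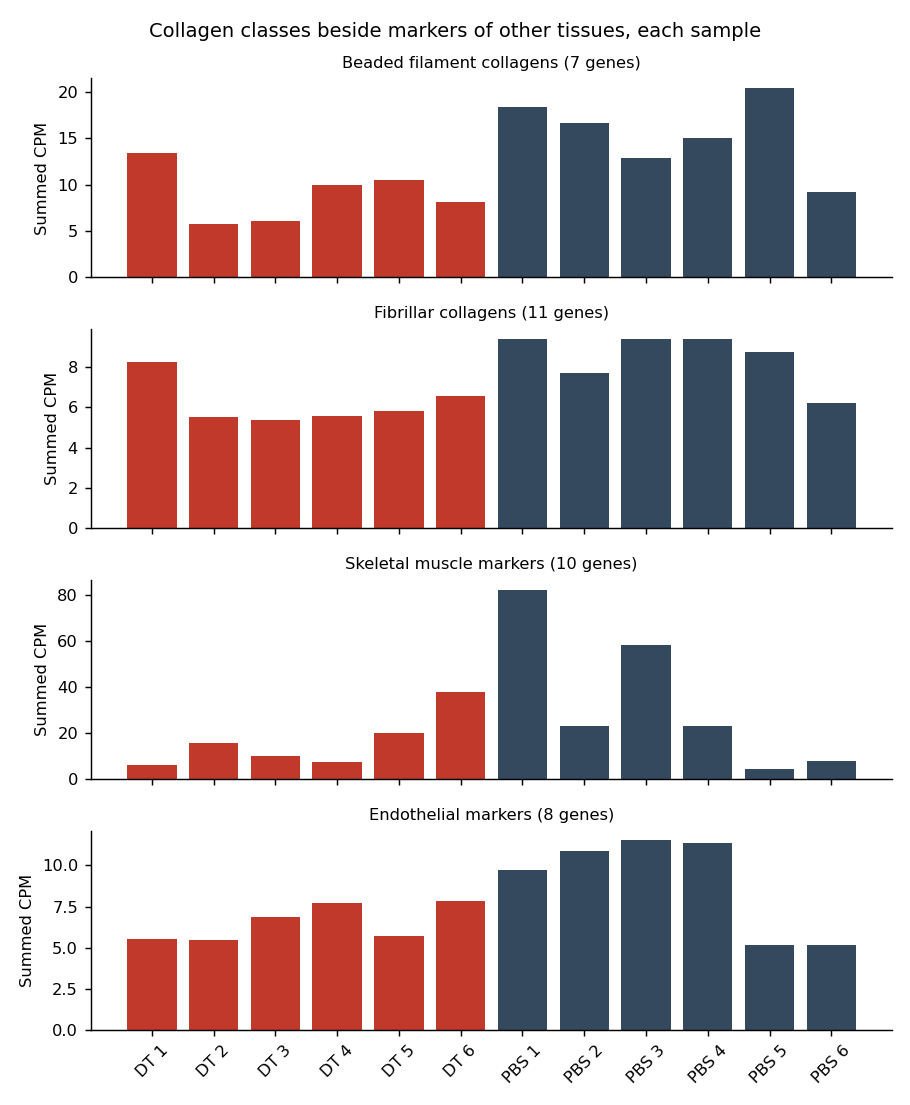
Summed CPM in each sample of the beaded filament collagens, the fibrillar collagens, the skeletal muscle markers and the endothelial markers, with DT samples in red and PBS samples in dark blue. PBS 5 has the highest collagen VI sum, 20.4 CPM, and the lowest muscle sum, 4.40 CPM, PBS 1 is high in both, at 18.4 and 82.6 CPM, and in DT 1 the collagen sums are the highest of the DT samples.

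Fibrillar collagens were scarce in both groups, with 5 of the 6 tested chains negative and none past the adjusted threshold by edgeR. Summed over 11 chains they were 6.19 ± 1.10 CPM in DT and 8.49 ± 1.29 CPM in PBS (SD, n = 6 each). Col5a1, which starts the assembly of collagen fibrils, was the one tested gene whose groups did not overlap, at 1.17 to 1.60 CPM in DT and 1.61 to 2.14 CPM in PBS. This was 3.12% of the 32 genes, while 2.21% of all genes tested had groups that did not overlap, 0.836% with DT higher and 1.37% with DT lower. The highest DT and lowest PBS samples of Col5a1 differed by little, and its log2 fold change was -0.38 ± 0.13 (SE, edgeR adjusted p = 0.167). Col3a1, the collagen of reticular fibres, ran from 0.491 through 0.671 to 1.21 CPM in DT and from 0.813 through 1.60 to 1.89 CPM in PBS. Its 4 lowest DT samples lay below every PBS sample (-0.89 ± 0.27 SE, edgeR adjusted p = 0.122), and DESeq2 called it (-0.90, adjusted p = 0.0385).

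Col1a1 averaged 0.484 ± 0.153 CPM in DT and 0.929 ± 0.428 CPM in PBS (log2 fold change -0.93, 95% interval -1.62 to -0.23, edgeR adjusted p = 0.181). In PBS, 4 samples had 1.10 CPM of it or more, whereas PBS 2 and PBS 6, at 0.482 and 0.305 CPM, were within the DT range. Counts were low, 91 in DT and 141 in PBS over 6 libraries each. Col1a2, the partner chain in collagen I, stood at -0.60 (95% interval -1.34 to 0.15, edgeR adjusted p = 0.447) and Col5a2, the partner of Col5a1, at -0.51 (adjusted p = 0.444). DT 1 had the highest Col5a2 and Col1a2 of the DT samples, 2.24 and 0.925 CPM. Col11a2, a chain best known from cartilage, did not follow the others, at 1.53 ± 0.274 CPM in DT and 1.51 ± 0.229 CPM in PBS (0.02, edgeR adjusted p = 0.974). Cartilage markers summed to at most 0.316 CPM in DT and 0.329 CPM in PBS.

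Among basement membrane collagens, Col4a5 and Col4a6 were far more abundant than Col4a1 and Col4a2, the chains common to all basement membranes. Averaged over all samples, the level per kb of Col4a5 was 25 times that of Col4a1, and that of Col4a6 was 14.2 times that of Col4a2. Col4a5 averaged 25.1 ± 2.83 CPM in DT and 26.9 ± 3.13 CPM in PBS (log2 fold change -0.10, 95% interval -0.28 to 0.08, edgeR adjusted p = 0.637). Col4a6, which starts next to Col4a5 and is transcribed away from it, averaged 14.9 ± 1.33 CPM in DT and 13.6 ± 1.58 CPM in PBS (0.13, edgeR adjusted p = 0.486). The ratio of Col4a5 to Col4a6 counts was 1.52 to 1.87 in DT and 1.58 to 2.31 in PBS, a ratio chosen after its values were seen. Col18a1 ran from 42.8 through 53.1 to 66.3 CPM in DT and from 57.4 through 66.8 to 76.4 CPM in PBS (-0.27 ± 0.10 SE, edgeR adjusted p = 0.206). Its 4 lowest DT samples lay below all PBS samples, and DT 4 and DT 6, at 63.6 and 66.3 CPM, lay among them.

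Col4a1 and Col4a2, the paired chains of the common network, were lower in DT 1, DT 2 and DT 3 than in the other DT samples. Col4a1 was 0.391, 0.421 and 0.581 CPM in DT 1, DT 2 and DT 3, and 1.67, 0.865 and 1.49 CPM in DT 4, DT 5 and DT 6, against 0.803 to 2.15 CPM in PBS (log2 fold change -0.58, 95% interval -1.29 to 0.12, edgeR adjusted p = 0.433). Col4a2 was split in the same way, with 0.316 to 0.391 CPM in DT 1, DT 2 and DT 3, 0.626 to 1.41 CPM in the other DT samples and 0.612 to 1.66 CPM in PBS (-0.55, edgeR adjusted p = 0.473). In PBS 5, which stood with DT 1, DT 2 and DT 3 on the first principal component, both chains were the lowest of their group. Col15a1, a collagen of vessel and muscle basement membranes, stood at 0.17 (edgeR adjusted p = 0.811), and Col4a3 had 40 counts and Col4a4 had 8 counts over all 12 libraries.

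The 3 tested FACIT and related collagens all had positive fold changes, and none passed by edgeR. Col16a1, a fibril-associated collagen, ran from 14.5 through 17.9 to 20.5 CPM in DT and from 12.5 through 15.1 to 16.8 CPM in PBS. Its 4 highest DT samples were above all PBS samples (0.28 ± 0.09 SE, edgeR adjusted p = 0.146). Col16a1 passed with the covariate for the first principal component (0.31, edgeR adjusted p = 0.0225), a fit that called 346 of 14231 genes higher. Col12a1, a bridge between fibrils, averaged 1.78 ± 0.533 CPM in DT and 1.22 ± 0.322 CPM in PBS (0.56, edgeR adjusted p = 0.228), with DT 1 and DT 3, at 1.46 and 1.01 CPM, inside the PBS range. Col20a1 stood at 0.06 (edgeR adjusted p = 0.906). Col23a1, a transmembrane collagen, averaged 4.57 ± 0.552 CPM in DT and 3.63 ± 0.648 CPM in PBS (0.33, 95% interval 0.07 to 0.59, edgeR adjusted p = 0.204). Col8a1, a short-chain collagen that forms hexagonal networks, went the other way, at 21.3 ± 3.40 CPM in DT and 25.2 ± 2.02 CPM in PBS (-0.24, edgeR adjusted p = 0.223). The 3 lowest values of Col8a1 were those of DT 1, DT 2 and DT 3, 17.9 to 19.0 CPM. PBS 5, on the same side of the first principal component, had the highest value of all samples, 28.7 CPM.

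Of the 9 tested genes for fibre proteins, adhesive glycoproteins and the receptor Pdgfra, none passed by edgeR. Eln, which encodes elastin, ran from 14.1 through 22.0 to 28.2 CPM in DT and from 14.0 through 15.7 to 18.1 CPM in PBS. All DT samples but DT 4 lay above the highest PBS sample (log2 fold change 0.43 ± 0.13 SE, edgeR adjusted p = 0.116), and the fit without DT 4 passed (0.53, adjusted p = 0.0401). DESeq2 called Eln as well (0.42, adjusted p = 0.0464). The annotated antisense gene Gm30003, which overlaps 3.30% of the exon bases of Eln, had 92 counts over all libraries, against 3945 counts of Eln in DT and 2454 in PBS. Vcan, which encodes the large hyaluronan-binding proteoglycan versican, ran from 1.55 through 2.87 to 3.51 CPM in DT and from 1.23 through 1.87 to 2.17 CPM in PBS (0.57 ± 0.19 SE, edgeR adjusted p = 0.158). As for Eln, DT 4 was the one DT sample within the PBS range.

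Tnc, tenascin C, an adhesion-modulating protein, averaged 17.1 ± 4.08 CPM in DT and 22.5 ± 4.47 CPM in PBS (-0.39 ± 0.15 SE, edgeR adjusted p = 0.226). DT 1, at 23.4 CPM, was above 3 of the PBS samples, and PBS 6, at 15.5 CPM, was below 3 of the DT samples. The more abundant Sparc and Fbln1 differed little. Sparc, a collagen-binding matricellular protein, averaged 23.1 ± 2.07 CPM in DT and 23.9 ± 3.23 CPM in PBS (-0.04, 95% interval -0.23 to 0.14, edgeR adjusted p = 0.871). Fbln1, a fibulin of basement membranes and elastic fibres, averaged 21.3 ± 1.63 CPM in DT and 21.9 ± 0.949 CPM in PBS (-0.04, 95% interval -0.17 to 0.08, edgeR adjusted p = 0.787). Fn1, fibronectin, averaged 2.00 ± 0.325 CPM in DT and 1.98 ± 0.310 CPM in PBS (0.01, 95% interval -0.30 to 0.31, edgeR adjusted p = 0.989).

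Fbln2, Fbn1 and Pdgfra, a receptor that marks fibroblasts, were under 1 CPM on average in both groups. Fbln2 stood at 0.27 (edgeR adjusted p = 0.667), Fbn1, the microfibril protein fibrillin 1, at -0.24 (adjusted p = 0.674) and Pdgfra at -0.19 (95% interval -0.74 to 0.35, adjusted p = 0.783). The 95% intervals of the 32 genes were 0.255 to 1.49 wide on the log2 scale, so that at this depth small differences of the scarce genes were not detectable. The remaining 27 genes were not tested. They held 309 raw counts in DT and 299 in PBS in all, not scaled for the generally greater depth of the DT libraries. Of these genes 15 had at most 3 counts in every library. Tnxb, tenascin X, was the most abundant of them with 63 counts in DT and 58 in PBS. Postn, periostin, had 15 counts in DT and 13 in PBS, and Col10a1 had 0 in all 12 libraries.

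Over the 32 tested genes the highest sample was a DT sample for 10 genes and a PBS sample for 22. The lowest sample was a DT sample for 18 genes and a PBS sample for 14. PBS 5 was highest for 7 genes and PBS 1 for 6, and DT 2 was lowest for 7 and PBS 2 for 5. The matrix genes thus did not rank the samples in one order.

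Genes that act on the matrix were described from lists kept apart from the 59 genes. Of 29 genes for collagen processing 21 were tested, 11 positive and 10 negative, and 0 passed by edgeR. Plod3, a lysyl hydroxylase, stood at 0.22 (adjusted p = 0.185) and P4ha1, a prolyl hydroxylase, at -0.24 (adjusted p = 0.205). Of 25 matrix proteases and their inhibitors 10 were tested and 9 of them were positive, with a median of 0.16 and 0 past the threshold. The membrane-bound protease Mmp15 averaged 34.3 ± 1.83 CPM in DT and 29.7 ± 1.82 CPM in PBS (0.21, edgeR adjusted p = 0.0791), and Mmp11 stood at 0.62 (adjusted p = 0.128). Among matrix receptors 12 of 14 were tested and 0 passed, with Sdc4 at -0.13 (adjusted p = 0.259) and Itga1 at 0.29 (adjusted p = 0.384).

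In the TGF-beta pathway 17 of 18 genes were tested, 13 of them positive with a median of 0.03, and 0 passed. Skil, a repressor of the pathway, stood at -0.19 (edgeR adjusted p = 0.195) and the co-receptor Tgfbr3 at 0.22 (adjusted p = 0.200). Of 15 laminins, nidogens and other basement membrane glycoproteins 10 were tested, 8 of them positive with a median of 0.08, and 0 passed. Agrn, agrin, averaged 132 ± 12.1 CPM in DT and 113 ± 9.33 CPM in PBS (0.22, edgeR adjusted p = 0.127), and Lama5 stood at 0.23 (adjusted p = 0.152). Elastic fibre partners (4 of 10 tested, Efemp2 at -0.38 and Efemp1 at 0.17), other leucine-rich matrix proteins (2 of 11 tested, Nyx at -0.29 and Tsku at 0.03) and PDGF genes (3 of 5 tested, Pdgfa at 0.13 and Pdgfb at 0.04) likewise had 0 members past the threshold. Over these lists edgeR thus made 0 calls, while it called 1.3% of all genes tested.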

How the data were processed

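The deposited table covers 12 samples of tongue epithelium, 6 DT and 6 PBS, grouped by their titles. The authors gave 1 raw count per gene and sample, and a normalized signal. The submitters' processing notes list cutadapt 2.10, TopHat2 2.1.1, HTSeq 2.01, DESeq2 1.36.0 and build GRCm39. Which annotation was counted, and with what strand option, is not given in the sources used here, so antisense or overlapping genes may share reads. The deposited signal is each count over its sample's size factor, and it served only as a check (recomputed size factors differed by 0%). Genes with blank counts (6250) were left out, and 0 columns belonged to no sample.

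Analysis used R 4.3.3 and edgeR 4.0.16, with filterByExpr (minimum count 10), TMM scaling and a two-sided quasi-likelihood F test of DT over PBS without covariates. Benjamini-Hochberg adjustment ran over all 14231 genes tested, at a threshold of 0.05. Each SE and 95% interval comes from the fold change and the F value. Alternatives used DESeq2 1.42.0, limma-voom (limma 3.58.1), other scalings and filters, a replicate block, a covariate for the first principal component, and fits without each sample. Exon lengths came from GENCODE M21 (GRCm38), matched by gene ID, and promoter windows from RefSeq (GRCm38.p6).

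The members and lists were chosen with earlier results of these data known. Named genes were every called member, the 6 with the smallest p in each direction, the 2 most abundant tested of each class, a set list, and up to 2 with the smallest p from each outside list. Other genes were named after their values were seen. Samples of a group differed by a chi-square per degree of freedom of 6.25 to 55.6, more than counting noise alone gives, which does not show that they came from separate mice. The labels do not state that each sample is a separate mouse, so the p-values may reflect technical spread alone.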

Additional observations from a re-analysis of the deposited data

Results flagged for a closer look

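Of 60 sets of 6 samples examined (each tested named gene in DT and in PBS), 1 had a sample far from the others, where chance alone gives about 1 in 20. Fbn1 in DT had DT 1 at 0.569 CPM and the other 5 samples at 0.283 to 0.388 CPM, and the gap took up 0.633 of the range. A protein-coding gene annotated on the opposite strand, Gm9913, overlaps 20.1% of the exon bases of Fbn1, and its part in these values was not tested.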

How the results depend on the processing

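Of 714 values of named genes under alternatives, 649 kept their direction and side of the threshold, 15 lost a call, 17 gained one and 33 changed sign, and the cause was not tested. Prelp stayed positive throughout, at 0.79 to 1.04. Fits within each side of the first principal component, and without the 3 libraries highest in muscle markers, were chosen after seeing the data.

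The 185 genes called among all tested became 553 with library size alone, 576 with DESeq2, 1017 with the principal component covariate, 1120 within DT 4 to DT 6 and PBS 1 to PBS 4, 3 within the other 5 samples and 5 without the libraries high in muscle markers, and 46 to 263 with 1 sample left out. Of these calls 34.1% were higher, against 87.5% with library size alone and 47.9% with upper quartile scaling. The replicate block gave 8 calls. Samples of the same number showed no likeness over the tested genes (correlations from -0.325 up to 0.107), which cannot settle whether the samples were paired. Under the block Prelp stood at 0.86 (edgeR adjusted p = 0.149), leaving 0 genes of the 59 called.

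Genes of the 59 called higher were 1 in the reported fit. They were 2 with library size alone, no filter, DESeq2, the covariate and DT 4 to DT 6 with PBS 1 to PBS 4. They were 0 with limma-voom, the other 5 samples and without the libraries high in muscle markers, and 0 to 1 with 1 sample left out. Over all genes, 63 of 14231 were called higher in the reported fit and 484 of 14231 with library size alone. The covariate gave 346 of 14231, and DT 4 to DT 6 with PBS 1 to PBS 4 gave 398 of 14454. No filter gave 86 of 30102 and DESeq2 189 of 30096. Genes of the 59 called lower were 0, against 1 with no filter, 2 with DESeq2 and 2 with the covariate. They were 3 within DT 4 to DT 6 and PBS 1 to PBS 4, and 0 to 1 with 1 sample left out. Of all genes, 0.857% were called lower in the reported fit, 0.458% with no filter and 1.29% with DESeq2. The share was 4.72% with the covariate and 5% within DT 4 to DT 6 and PBS 1 to PBS 4. Within those 7 samples, a split taken from the same values, Col1a1 stood at -1.21 and Tnc at -0.38. The median of the tested genes, -0.10, was -0.0011 with library size alone and -0.15 to -0.06 with 1 sample left out.

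Signs changed as follows. With library size alone Col4a5 stood at 0.0075, Sparc at 0.065, Fbln1 at 0.062 and Dcn at 0.085. Fn1 stood at -0.00027 in DESeq2, -0.0050 in limma-voom and -0.0046 with the covariate, and Bgn at 0.040 in limma-voom, 0.025 with the covariate and 0.091 without the libraries high in muscle markers. Within DT 1 to DT 3, PBS 5 and PBS 6, Sparc stood at 0.015, Bgn at 0.94, Fbn1 at 0.35 and Fbln2 at -0.083. Within the other 7 samples Col20a1 stood at -0.13, Fbln1 at 0.0031, Col11a2 at -0.18, Dcn at 0.17 and Fn1 at -0.17. With 1 sample left out, ranges that crossed 0 were -0.050 to 0.10 for Col11a2, -0.064 to 0.085 for Fn1, -0.071 to 0.011 for Dcn, -0.10 to 0.015 for Sparc, -0.28 to 0.010 for Bgn and -0.020 to 0.14 for Col20a1.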
